A study of Mus musculus with 5 samples.

Results

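The genes described here are 10 markers of the epicardium and of mesothelium: Wt1, Upk3b, Upk1b, Msln, Tbx18, Tcf21, Aldh1a1, Aldh1a2, Krt8 and Krt19. They were chosen by gene symbol, and all 10 had a row among the 19061 genes of the files. RNA sequencing was done on whole hearts of C57BL/6 mice at postnatal day 158. All animals were calcineurin transgenic (MHC-CnATg): the alpha myosin heavy chain promoter drives calcineurin in cardiomyocytes, and the heart becomes severely hypertrophic. No heart without the transgene was analysed here. The mice received vehicle (2 libraries) or JIB-04 (3 libraries), an inhibitor of Jumonji histone demethylases, at 50 mg/kg, with 3 doses per week from an age of 4 weeks. For JIB-04 replicate 3 the title has the transgene abbreviation with another letter, while its genotype label is that of the others.

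The epicardium is the sheet of mesothelial cells that covers the heart. In the embryo some of its cells leave the surface by an epithelial to mesenchymal transition and give rise to fibroblasts and to mural cells of the vessels. In the adult it is largely quiescent, and injury can bring back its embryonic genes. It is also a source of retinoic acid, which retinaldehyde dehydrogenases make from retinaldehyde.

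Levels are the authors' normalised read counts, scaled by library size and headed CPM. The libraries held 32152168 to 37002846 reads, and 3 reads were worth 0.0804 to 0.0977 CPM. Ppp3ca, the endogenous gene of the calcineurin catalytic subunit whose row can also take up transgene reads, had 4341 to 8022 CPM in the 5 libraries. Nothing in the labels says that each library is a separate animal, so p-values measure only the spread between these libraries. In whole heart RNA, fewer cells of a type and less RNA per cell cannot be told apart.

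No member passed the test between groups (limma on log2(CPM + 1), Benjamini-Hochberg over 14414 genes, threshold 0.05), and neither did any other gene, a background of 0%. Of the members 6 had a positive and 4 a negative log2 fold change, with a median of 0.09 against -0.01 over all genes tested. The median ran from 0.0002 to 0.17 when 1 library was left out. At an unadjusted p under 0.05 there were 2 of 10 members, Aldh1a2 and Aldh1a1, where 6.44% of all genes passed. In 2 members, Aldh1a2 and Tbx18, every JIB-04 library lay above both vehicle libraries, and 10.7% of all genes did so. In 1 member, Aldh1a1, every JIB-04 library lay below both, as in 12% of all genes. The groups of the other 7 overlapped. edgeR on recovered reads called 0 members, with the same 2 at an unadjusted p under 0.05, where 6.56% of all genes passed. DESeq2 called 0 of the members too, against 0.628% of the genes to which it gave an adjusted p, and gave Upk1b and Krt8 no adjusted p.

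The windows before the start sites of Aldh1a2, Aldh1a1 and Tbx18 are shown because these 3 genes had groups that did not overlap. They are the 250 bases before the RefSeq start on GRCm38.p6, at chr9:71215539-71215788 (plus strand), chr19:20601718-20601967 (plus strand) and chr9:87731261-87731510 (minus strand). RefSeq gives Aldh1a1 a further, more distant start, and the window used is the one next to the start in the files. Capitals mark the CCAAT box on either strand, and the octamer ATGCAAAT, which POU family factors are known to bind.
Aldh1a2: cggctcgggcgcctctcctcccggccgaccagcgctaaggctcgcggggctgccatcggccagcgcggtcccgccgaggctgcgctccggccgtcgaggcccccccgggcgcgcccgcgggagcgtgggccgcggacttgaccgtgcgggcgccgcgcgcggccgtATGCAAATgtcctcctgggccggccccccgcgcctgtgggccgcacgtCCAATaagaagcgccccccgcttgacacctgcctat
Aldh1a1: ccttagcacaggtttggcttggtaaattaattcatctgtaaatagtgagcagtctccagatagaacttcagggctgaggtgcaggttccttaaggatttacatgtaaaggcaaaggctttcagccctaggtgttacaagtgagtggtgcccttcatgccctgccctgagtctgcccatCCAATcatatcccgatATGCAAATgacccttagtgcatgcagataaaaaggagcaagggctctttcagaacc
Tbx18: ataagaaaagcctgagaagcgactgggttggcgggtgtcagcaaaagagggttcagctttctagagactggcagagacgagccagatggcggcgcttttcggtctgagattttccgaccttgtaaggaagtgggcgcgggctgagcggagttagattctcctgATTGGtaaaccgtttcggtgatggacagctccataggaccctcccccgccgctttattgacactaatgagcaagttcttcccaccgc

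The Aldh1a2 window held 40 CpG dinucleotides, more than in 98.7% of 32851 mouse promoter windows of the same length, and had a GC content of 77.6%. The Aldh1a1 window held 1 CpG at a GC content of 46.4%, and the Tbx18 window 15 CpG at 54.0%, where the median window had 6. CCAAT occurred in all 3 windows and in 33.8% of all windows on either strand. ATGCAAAT occurred 84 bases before the start of Aldh1a2 and 56 bases before that of Aldh1a1, and in 1.60% of all windows. The octamer was searched for after both sequences had been seen. Neither motif overlapped the other. A TATA box searched as TATAAA, a GC box searched as GGGCGG, a nuclear receptor half-site searched as AGGTCA and a TEAD element searched as GGAATG, on both strands, were not among the letters of the 3 windows. They occurred in 12.4%, 32.7%, 14.0% and 12.6% of all windows in this order. RefSeq windows were also found for Upk3b, Tcf21 and Krt8, and these held neither CCAAT nor the octamer. The nuclear receptor half-site occurred in the Upk3b and Krt8 windows and the TEAD element in that of Upk3b. The window of the more distant Aldh1a1 start held the TEAD element and neither CCAAT nor the octamer. No window was matched for Wt1, Upk1b, Msln and Krt19.

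Aldh1a2, the retinaldehyde dehydrogenase of the embryonic epicardium, showed the largest difference among the members. The gene lies on chromosome 9 at 71215789 to 71296243 of mm10. It had 14.97 and 9.41 CPM in vehicle replicates 1 and 2, and 17.5, 28.5 and 42.4 CPM in JIB-04 replicates 1, 2 and 3. JIB-04 replicate 1 stood close to the higher vehicle library, while replicates 2 and 3 stood well above it. The means were 12.2 ± 3.9 CPM (SD, n = 2) and 29.5 ± 12.5 CPM (SD, n = 3), a 2.42-fold ratio. The log2 fold change was 1.16 ± 0.35 (SE; 95% interval 0.32 to 1.99, limma adjusted p = 0.707). By size of change it was number 21 of 14414 genes on this scale. The value was 1.28 in edgeR (adjusted p = 0.669) and 0.85 without vehicle replicate 2. Without JIB-04 replicate 1 it was 1.47 (limma adjusted p = 0.0718).

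Aldh1a1, a retinaldehyde dehydrogenase that is also active in many adult tissues, differed in the other direction by a small amount. It lies on chromosome 19 at 20601982 to 20643462. Vehicle replicates 1 and 2 had 47.0 and 56.4 CPM, and JIB-04 replicates 1, 2 and 3 had 46.6, 43.6 and 40.1 CPM. JIB-04 replicate 1 was separated from vehicle replicate 1 by 0.420 CPM, well inside the counting error of each (44.8 to 49.3 CPM for the vehicle library, 95% Poisson interval). The log2 fold change was -0.24 ± 0.10 (SE; limma adjusted p = 0.77). It was -0.12 when vehicle replicate 2 was left out and -0.37 when vehicle replicate 1 was.

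Per kilobase of merged exons, Aldh1a2 and Aldh1a1 had the highest mean levels of the 10 members. The ratio of Aldh1a2 to Aldh1a1 on this scale was 0.694 and 0.364 in vehicle replicates 1 and 2, and 0.820, 1.43 and 2.31 in JIB-04 replicates 1, 2 and 3. On this scale Aldh1a1 was the higher of the pair in both vehicle libraries and in JIB-04 replicate 1. Aldh1a2 was the higher in JIB-04 replicates 2 and 3. In CPM, not divided by length, Aldh1a1 was still the higher in JIB-04 replicate 2, at 43.6 against 28.5 CPM. Only in JIB-04 replicate 3 was Aldh1a2 the higher, at 42.4 against 40.1 CPM. The place of the switch thus depends on the lengths used, 4.937 kb for Aldh1a1 and 2.264 kb for Aldh1a2, which are approximate.

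**Figure D1:**
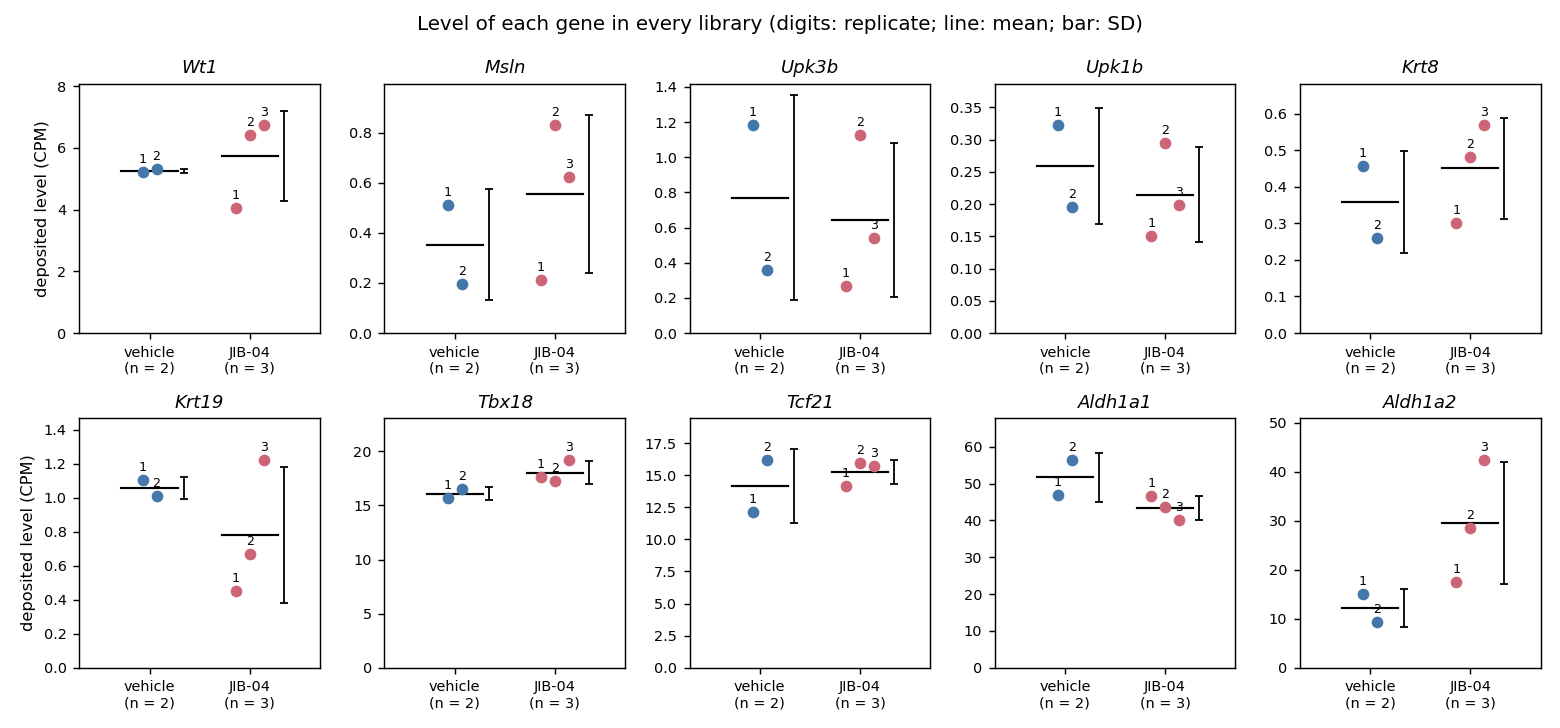
Level of each of the 10 genes in CPM (y axis, from 0, with its own scale in each panel) in vehicle and JIB-04 hearts. Points are libraries with their replicate number, lines are group means and bars are SD; the groups are apart for Aldh1a2, Aldh1a1 and Tbx18 and overlap for the other 7.

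Tbx18 and Tcf21 are transcription factor genes of the epicardial lineage; in the adult heart Tbx18 also marks mural cells and Tcf21 marks fibroblasts. The highest library was 1.23-fold above the lowest for Tbx18 and 1.34-fold for Tcf21. Tbx18 (chromosome 9, 87702800 to 87731260) had 15.7 and 16.5 CPM in vehicle and 17.7, 17.3 and 19.2 CPM in JIB-04. Although these groups did not overlap, the gap between them was 0.71 CPM (16.54 against 17.25), and the 95% counting interval of vehicle replicate 2 alone ran from 15.1 to 18.0 CPM. The log2 fold change was 0.15 ± 0.09 (SE; limma adjusted p = 0.821). Tcf21 (chromosome 10, 22817275 to 22820128) had 12.1 and 16.2 CPM in vehicle and 14.2, 15.9 and 15.7 CPM in JIB-04. Vehicle held both the lowest and the highest library for Tcf21. Its log2 fold change was 0.11 ± 0.13 (SE; limma adjusted p = 0.883), and -0.08 without vehicle replicate 1. The 95% intervals of the group difference, -0.05 to 0.36 for Tbx18 and -0.20 to 0.43 for Tcf21 on the log2 scale, were narrow beside that of Aldh1a2.

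Wt1, a zinc finger transcription factor of the epicardium that some endothelial cells also express, was the best covered of the surface markers. It lies on chromosome 2 at 105126529 to 105173614, and 135 to 239 reads fell on it. The 2 vehicle libraries were nearly equal, at 5.21 and 5.31 CPM, and lay inside the range of JIB-04, at 4.05, 6.40 and 6.73 CPM. JIB-04 replicate 1 was the lowest of the 5 libraries and replicates 2 and 3 were the highest. The log2 fold change was 0.08 ± 0.19 (SE; limma adjusted p = 0.944). It was -0.0026 without JIB-04 replicate 2, -0.03 without replicate 3 and 0.27 without replicate 1. The antisense gene Wt1os, which starts 18 bases away on the other strand, had 0 to 0.114 CPM and does not overlap the Wt1 row.

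Msln, Upk3b and Upk1b mark mesothelial cells more narrowly and were detected at 44 reads or fewer in any library. Msln encodes the surface protein mesothelin, and Upk3b and Upk1b encode uroplakins. Msln (chromosome 17, 25748613 to 25754327) had 0.511 and 0.195 CPM in vehicle and 0.210, 0.830 and 0.625 CPM in JIB-04, from 6 to 31 reads. Upk3b (chromosome 5, 136038496 to 136044993) had 1.182 and 0.358 CPM in vehicle and 0.270, 1.125 and 0.540 CPM in JIB-04, from 9 to 44 reads. For both genes the groups overlapped.

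Upk3b had a high and a low library in each group. In vehicle, replicate 1 was 3.30-fold above replicate 2, with 95% Poisson intervals of 0.859 to 1.59 and 0.179 to 0.641 CPM. In JIB-04, replicate 2 was 4.17-fold above replicate 1, with intervals of 0.811 to 1.52 and 0.123 to 0.512 CPM. The means of the groups, 0.770 ± 0.583 (SD, n = 2) and 0.645 ± 0.437 CPM (SD, n = 3), differed by less than either SD. The log2 fold change was -0.10 ± 0.27 (SE; limma adjusted p = 0.949), with the sign turned without vehicle replicate 1 (0.24) or JIB-04 replicate 1 (0.07). For Msln it was 0.19 ± 0.20 (SE; limma adjusted p = 0.874), and 0.64 in edgeR, whose scale does not compress low levels. Leaving out vehicle replicate 2 gave 0.02 for Msln, and leaving out JIB-04 replicate 1 gave 0.36.

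Upk1b (chromosome 16, 38773184 to 38800203) was the lowest member per kilobase. It had 0.322 and 0.195 CPM in vehicle and 0.150, 0.295 and 0.199 CPM in JIB-04, which rest on 5 to 12 reads. All 5 of its Poisson intervals overlapped, and differences between single libraries were not tested. Its log2 fold change was -0.05 ± 0.12 (SE; limma adjusted p = 0.938), and 0.02 without vehicle replicate 1.

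Krt8 and Krt19 encode keratins of simple epithelia, to which mesothelium belongs by structure. Krt8 (chromosome 15, 101996711 to 102004342) had 0.457 and 0.260 CPM in vehicle and 0.300, 0.482 and 0.568 CPM in JIB-04, from 8 to 20 reads. The groups of Krt8 overlapped, and its log2 fold change was 0.09 ± 0.13 (SE; limma adjusted p = 0.9). It was -0.01 without vehicle replicate 2. Krt19 (chromosome 11, 100140811 to 100145919) had 1.10 and 1.01 CPM in vehicle and 0.450, 0.670 and 1.22 CPM in JIB-04, from 15 to 43 reads. JIB-04 replicates 1 and 2 were below both vehicle libraries and replicate 3 above them. Its log2 fold change was -0.23 ± 0.19 (SE; limma adjusted p = 0.852). Leaving out JIB-04 replicate 1 gave -0.09, and leaving out replicate 3 gave -0.40.

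**Figure D2:**
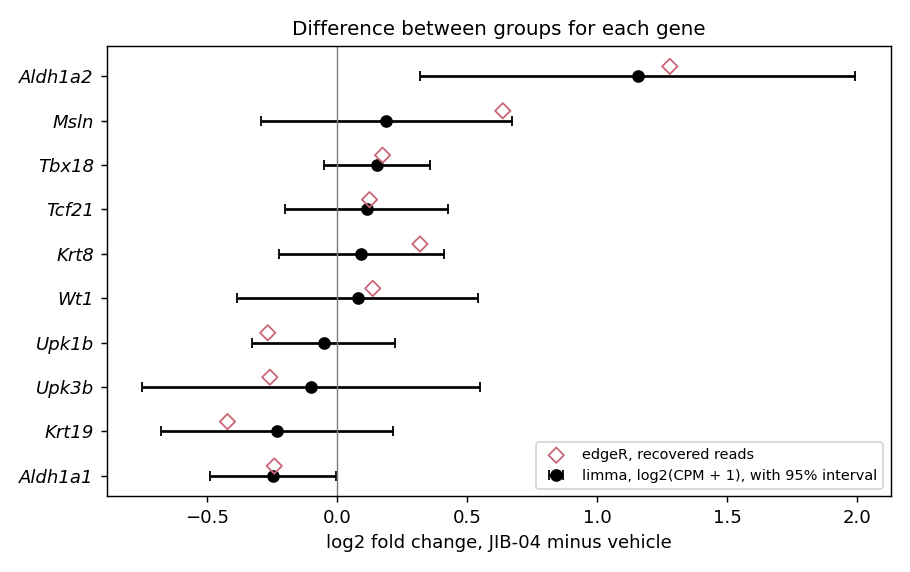
Log2 fold change of JIB-04 against vehicle (x axis) for the 10 genes; black points with bars are limma estimates with 95% intervals on log2(CPM + 1), and open diamonds are edgeR estimates on recovered reads. The limma interval excludes 0 without adjustment for Aldh1a2 and Aldh1a1, and the edgeR values lie farther from 0 for low genes such as Msln and Krt8.

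As a sum, the surface markers varied more among the JIB-04 libraries than between the groups. The summed level of Wt1, Upk3b, Upk1b, Msln, Krt8 and Krt19 was 8.79 and 7.33 CPM in vehicle and 5.43, 9.80 and 9.89 CPM in JIB-04. The largest part of each sum was Wt1, at 5.21 and 5.31 CPM in vehicle and 4.05, 6.40 and 6.73 CPM in JIB-04. The sum therefore mostly follows this gene. The vehicle sums lay inside the JIB-04 range. The means were 8.06 ± 1.03 (SD, n = 2) and 8.37 ± 2.55 CPM (SD, n = 3). On the log2 scale the difference was 0.06, and its sign turned when vehicle replicate 2 (-0.07) was left out, and likewise for JIB-04 replicate 2 (-0.07) and replicate 3 (-0.08).

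The libraries stood in a similar order for several of these genes. JIB-04 replicate 1 was the lowest library for Wt1, Upk3b, Upk1b and Krt19 and the lowest but one for Msln and Krt8, where vehicle replicate 2 was the lowest. Each library was set against the mean of the 5 libraries on the log2 scale. On it JIB-04 replicate 1 was at -1.36 for Upk3b, -1.18 for Msln, -0.63 for Upk1b and -0.98 for Krt19. These values rest on 9, 7, 5 and 15 reads in this order. For Tbx18 and Tcf21 JIB-04 replicate 1 was at 0.03 and -0.06. Vehicle replicate 2 was at -0.96 for Upk3b, -1.28 for Msln, -0.25 for Upk1b and 0.18 for Krt19. Vehicle replicate 1 and JIB-04 replicate 2 were the highest 2 libraries for Upk3b and Upk1b.

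**Figure D3:**
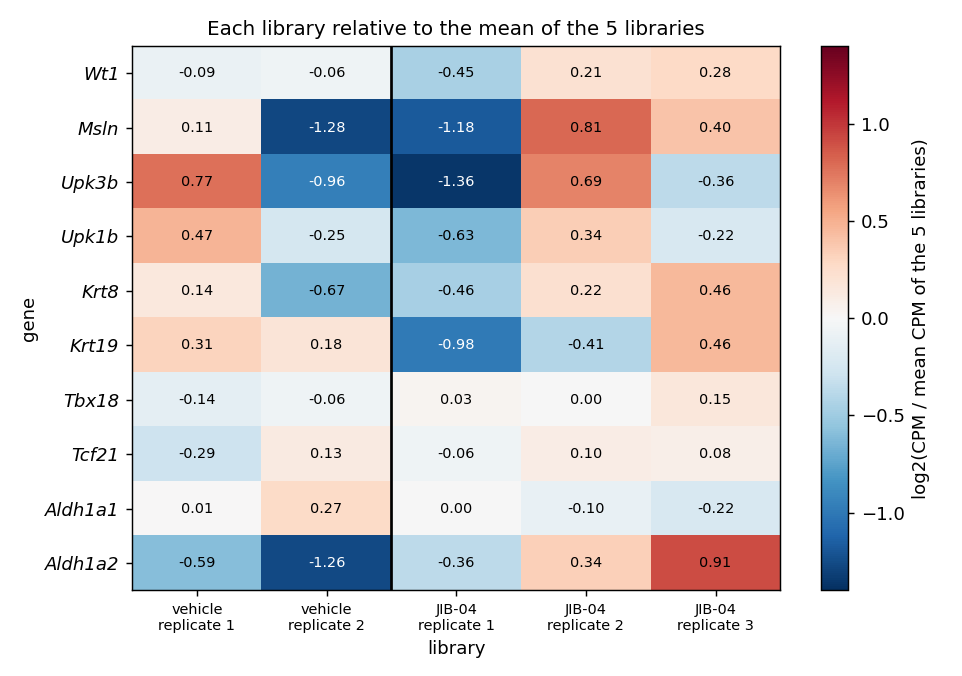
Level of each gene (rows) in each library (columns) as log2 of its CPM over the mean CPM of the 5 libraries; red is above the mean, blue below, and the black line parts vehicle from JIB-04. Upk3b ranges from -1.36 to 0.77 and Msln from -1.28 to 0.81, with a low and a high library in each group, while Tbx18 stays between -0.14 and 0.15.

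Per kilobase of merged exons the order of the mean levels was Aldh1a2 (9.96), Aldh1a1 (9.46), Tcf21 (6.31), Tbx18 (3.66), Wt1 (0.894), Krt19 (0.480), Krt8 (0.211), Upk3b (0.197), Msln (0.155) and Upk1b (0.111 CPM per kb). The lowest Aldh1a1 library lay above the highest for Tcf21, and the same held between Tcf21 and Tbx18 and between Tbx18 and Wt1. All other neighbours in this order overlapped. Lineage and retinoid genes were thus at higher levels than the surface markers in every library. Exon lengths are from GENCODE M21, and the gene model used for counting was not given in the sources used here, so this order is approximate.

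Other genes on a list of mesothelial and epicardial genes mostly overlapped between the groups. Some were far above Wt1 (4.05 to 6.73 CPM), such as Podxl at 119 to 146 CPM and Ezr at 26.9 to 32.3 CPM. Which cells of the heart their reads came from was not tested. Of 22 on the list, 21 had a row, 15 were tested, 8 had positive and 7 negative values (median 0.03), and 0 passed over all genes or at an unadjusted p under 0.05. In 2 of the 15, every JIB-04 library was above both vehicle libraries, a share near the 10.7% of all genes. Those were Prr15, with 1.21 and 1.04 CPM in vehicle and 1.59, 1.69 and 1.34 CPM in JIB-04, and Rarres2, which encodes the chemoattractant chemerin, with 16.0 ± 0.2 (SD, n = 2) and 17.8 ± 0.3 CPM (SD, n = 3). Sema3d, a secreted semaphorin, had 16.8 ± 1.6 and 20.6 ± 3.5 CPM. Clu, which encodes the extracellular chaperone clusterin, had 635 and 495 CPM in vehicle and 505, 806 and 1026 CPM in JIB-04. Lrrn4, a mesothelial surface gene, had 21 and 4 reads in vehicle and 5, 17 and 3 in JIB-04, high in the same 2 libraries as Upk3b. Krt18, the partner with which Krt8 forms filaments, had 3.60 and 2.60 CPM in vehicle and 2.01, 11.1 and 5.54 CPM in JIB-04. Lrrn4 and Krt18 were picked after their values were seen.

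The genes around Aldh1a1 and Aldh1a2 in retinoid metabolism and signalling had values of both signs. Of 23 on the list, 16 were tested, 6 positive and 10 negative (median -0.05), with 0 past the threshold over all genes and 1 lower at an unadjusted p under 0.05, a share near the 6.44% of all genes. That gene was Adh1, an alcohol dehydrogenase that can oxidise retinol, with 4.41 and 6.61 CPM in vehicle and 3.63, 3.70 and 3.41 CPM in JIB-04 (log2 fold change -0.49, SE 0.16, limma adjusted p = 0.743). Aldh1a3, the remaining retinaldehyde dehydrogenase of this family, had 3.52 and 2.54 CPM in vehicle and 2.76, 6.00 and 4.86 CPM in JIB-04, which overlapped. Dhrs3, which reduces retinaldehyde back to retinol, had 50.4 ± 3.4 (SD, n = 2) and 44.6 ± 4.3 CPM (SD, n = 3). Rara, a retinoic acid receptor, had 15.6 ± 1.6 and 19.0 ± 3.3 CPM. Cyp26a1, which breaks retinoic acid down, had 2 to 17 reads and was not tested. Cyp26b1, of the same family, was tested and its groups overlapped. It had 10.5 and 13.3 CPM in vehicle and 13.7, 7.82 and 11.5 CPM in JIB-04 (log2 fold change -0.13, SE 0.22, limma adjusted p = 0.918).

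**Figure D4:**
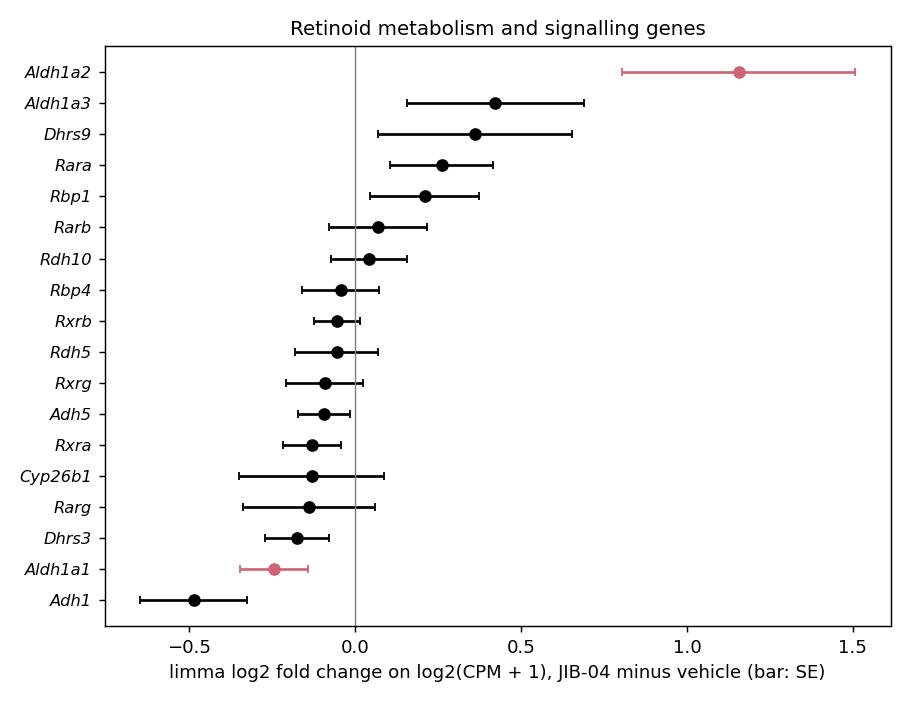
Limma log2 fold change of JIB-04 against vehicle on log2(CPM + 1) (x axis, bars are SE) for the tested retinoid genes, with Aldh1a1 and Aldh1a2 in red. Aldh1a2 stands at 1.16 at one end, Aldh1a1 at -0.24 and Adh1 at -0.49 at the other, and Aldh1a3 is next to Aldh1a2 at 0.42.

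Genes of the epithelial to mesenchymal transition, by which epicardial cells leave the surface, were 10 positive and 4 negative of 14 tested (median 0.14), and 0 passed over all genes. At an unadjusted p under 0.05 there were 3 higher and 1 lower of the 14, where 6.44% of all genes passed in either direction. Zeb2, a repressor of epithelial genes, had 40.9 ± 2.7 (SD, n = 2) and 51.7 ± 4.8 CPM (SD, n = 3). Itga4, an integrin subunit, had 3.46 ± 1.26 and 5.18 ± 0.47 CPM. S100a4, a calcium binding protein of fibroblasts and leukocytes, had 3.04 and 3.03 CPM in vehicle and 3.45, 9.05 and 8.15 CPM in JIB-04. Like Aldh1a2, S100a4 was near vehicle in JIB-04 replicate 1 and well above it in replicates 2 and 3. Tgfbr3, the TGF-beta coreceptor betaglycan, was the lower one, at 63.5 ± 1.3 and 48.0 ± 10.6 CPM.

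Markers of other cell types moved with some of these values. Summed over 10 macrophage markers, the level was 353 and 253 CPM in vehicle and 348, 476 and 543 CPM in JIB-04. Of the 10 tested, 9 were positive (median 0.63), where 46.9% of all genes were, and 0 passed over all genes. At an unadjusted limma p under 0.05 there were 7 higher and 0 lower, where 6.44% of all genes passed in either direction. In 4 of the 10 every JIB-04 library lay above both vehicle libraries, against 10.7% of all genes. JIB-04 replicates 2 and 3, the highest for Aldh1a2, were the highest for macrophage markers too. Cx3cr1, the fractalkine receptor, had 3.56 ± 0.33 (SD, n = 2) and 9.61 ± 2.77 CPM (SD, n = 3). Fibroblast markers, 8 positive and 2 negative of 10 (median 0.20), summed to 3963 and 3807 CPM in vehicle and 3931, 4396 and 4508 CPM in JIB-04. Of these 10, 0 passed over all genes. At an unadjusted limma p under 0.05 there were 1 higher and 1 lower, where 6.44% of all genes passed in either direction. The higher was Lum, a matrix proteoglycan, with 127 ± 6 and 164 ± 5 CPM (limma adjusted p = 0.399). The lower was Dpep1, a dipeptidase of cardiac fibroblasts, with 80.6 ± 13.3 and 54.2 ± 14.2 CPM (limma adjusted p = 0.748). The part of macrophages or fibroblasts in the Aldh1a2 values was not tested.

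Smooth muscle and pericyte markers (3 positive, 7 negative of 10, median -0.06) and endothelial markers (5 and 5 of 10, median 0.02) had overlapping sums. Cardiomyocyte markers were 1 positive and 9 negative of 10 (median -0.17), at 86732 to 116066 CPM in sum, so the tissue label held in every library. Lung epithelium, a possible companion of mesothelium from outside the heart, gave summed levels of 1.47 to 1.91 CPM in vehicle and 2.17 to 2.53 CPM in JIB-04 over 9 of 12 markers with a row. These sums did not overlap, and the largest part of each was Napsa, an aspartic protease, with 24 to 60 reads. Of the surfactant genes Sftpc had 0 reads in every library and Sftpb 4 over all 5. Ager, a receptor of alveolar cells, had 9 to 20 reads per library, and Nkx2-1, a transcription factor gene of lung and thyroid, 33 over all 5. Scgb1a1, a secretory protein of the airway, had 0 reads in both vehicle libraries and 3, 11 and 0 in JIB-04. Epcam, Scgb3a2 and Lamp3 had 13, 6 and 3 reads over all 5 libraries. The part of lung tissue in the values of the mesothelial genes was not tested. Of the adipocyte markers 7 of 10 had a row, and the fat-specific genes Adipoq and Plin1 had 7 and 4 reads over all 5 libraries. The adipocyte sums, 392 to 441 CPM in vehicle and 355 to 462 CPM in JIB-04, came nearly all from Fabp4 and Cidea, which other heart cells also make.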

How the data were processed

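Total RNA of hearts went into 5 stranded mRNA libraries (per the labels' protocols). Per the submitters' processing notes, which give no role or order, the tools were TopHat2 2.0.12, FastQC 0.11.2, Picard 1.127, Subread, featureCounts and edgeR, and the build was mm10. Each file deposited by the authors holds 1 library, with a normalised signal for every gene under the header CPM. The columns summed to 954981 to 1046902, so they were treated as reads over a scaled library size, and whole reads were recovered (100% of values within 0.01 of a whole number). Depth was 32152168 to 37002846 reads. One blank row was dropped. Gene starts in the files count from 0 (9785 of 17874 lay 1 below the RefSeq start, 660 on it) and are given here counted from 1.

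Genes passing edgeR's filterByExpr (minimum of 10 reads, 15 in total) were tested on log2(CPM + 1) with limma 3.58.1 (R 4.3.3, trended variance), a scale that understates changes of low genes. All 10 members passed this filter, and 5 had a mean under 1 CPM. Fits were run on simulated counts that had the same spread beyond counting error for every gene. That run does not show how the fits perform at the spread of these libraries. The alternatives were edgeR 4.0.16, limma-voom, DESeq2 1.42.0, a pseudocount of 0.25, scaling to total reads, other filters, a replicate block and leaving out each library. Poisson intervals (95%) cover counting error only. From the lists of other mesothelial, retinoid, transition and cell type genes, up to 4 members with the smallest p were named. Lrrn4, Krt18, Cyp26a1, Cyp26b1, Adipoq, Plin1 and several lung markers were named outside this rule. Members and lists were chosen with earlier results of these data known.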

Additional observations from a re-analysis of the deposited data

How the results depend on the processing

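Tbx18, Aldh1a1, Aldh1a2, Msln and Krt19 kept the sign of their difference under every alternative that could test them, and no alternative called any of the 10 genes. Aldh1a2 ran from 0.85 to 1.47 on the log2 scale, with a smallest adjusted p of 0.0718. Leaving out 1 library moved Wt1 over -0.034 to 0.27, Upk3b over -0.44 to 0.24, Upk1b over -0.12 to 0.021, Tcf21 over -0.080 to 0.31, Krt8 over -0.011 to 0.20 and the summed surface level over -0.081 to 0.29. The mean of log2(CPM + 1) over the same 6 surface genes differed by -0.0031. The cause of these turns was not tested. Over all genes DESeq2 called 86, and leaving out 1 library gave 0 to 29 calls, the 29 without JIB-04 replicate 1. At an unadjusted p under 0.05 limma had 928 genes, edgeR 946, limma-voom 872 and DESeq2 823. With the replicate number as a block, 0 genes passed and Wt1 was at -0.034; that fit takes nothing from JIB-04 replicate 3, which has no vehicle partner. The differences between replicates 1 and 2 of the groups had r = -0.14 across 14414 genes. The same vehicle difference had r = -0.09 against JIB-04 replicate 1 minus 3 and r = 0.09 against replicate 2 minus 3. Correlations between so few libraries cannot decide whether equal numbers pair them. A mean of at least 1 CPM left 5 members, and without JIB-04 replicate 2 the filter removed Upk1b. Scaling to total reads moved the median of all genes from -0.01 to 0.04 and the share of positive values from 46.9% to 63.1%, and turned no member. Depth limits Upk1b, Msln and Krt8, at 5 to 31 reads a library.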
